A study of Mus musculus with 15 samples.

Results

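The genes described here are 34 genes of homologous recombination, the Fanconi anaemia pathway and the checkpoint kinases that act with them, out of 54232 genes in the deposited tables. They were taken as a written list of mouse symbols, and each was found by its Ensembl ID. All 34 had a mean of at least 10 normalised reads in every comparison, so none was lost to a filter on low values. Their RNA was followed over 15 libraries of mouse brain tumours to ask how it differed with H3.3G34R and with Atrx status, and how far it followed Mki67, the gene of the Ki-67 antigen of cycling cells.

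Every tumour was taken from the frontal cortex of C57BL/6 mice in which the Nestin promoter drives Tv-a, the receptor that lets RCAS avian viruses enter neural progenitors. Injected DF-1 cells, a chicken fibroblast line, supplied RCAS-Cre, RCAS-PDGFA and a GFP-tagged H3.3, so that all groups share p53 fl/fl, Cre and PDGFA. The groups were p53 fl/fl; ATRX fl/fl with RCAS-H3.3G34R-GFP (ATRXfl_G34R, n = 4), p53 fl/fl; ATRX fl/fl with RCAS-H3.3WT-GFP (ATRXfl_WT, n = 4), p53 fl/fl with RCAS-H3.3G34R-GFP (p53_G34R, n = 3) and p53 fl/fl with RCAS-H3.3WT-GFP (p53_WT, n = 4). Mice were taken at a functional end point; age and sex are not in the labels, and a library may hold normal cortex besides tumour.

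Homologous recombination repairs a broken chromosome by copying the sister chromatid: the MRN complex finds the break, nucleases trim its ends, and BRCA1, PALB2 and BRCA2 act on the bared strand before it pairs with its template. The Fanconi pathway unhooks links between the strands at stalled replication forks, where a core complex marks the FANCD2 and FANCI pair with ubiquitin. Both act mainly in S and G2 phase, and many of their genes are known targets of the E2F factors that open S phase. ATRX, a chromatin remodeller that deposits H3.3, has itself been linked to replication stress and to recombination at telomeres.

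Libraries held 22807315 to 35679129 reads in genes. Atrx, the targeted gene, had 1924, 2851, 3031 and 1346 in ATRXfl_G34R, 2350.2, 2449, 1931 and 3124 in ATRXfl_WT, 5235, 5709.9 and 7944 in p53_G34R and 8540.01, 6471, 5143 and 7766 in p53_WT. Coordinates below are on GRCm38 (mm10). Each floxed library lay below each intact one in Atrx (log2 -1.50 (SE 0.19), limma adjusted p = 0.00293). Mki67 had 7074, 11871, 9326 and 13456 in ATRXfl_G34R, 2409.8, 5886, 14890.2 and 10234 in ATRXfl_WT, 3951, 5888 and 14451 in p53_G34R and 11997, 27187, 2685 and 12119 in p53_WT, and Top2a, another gene of cycling cells, spanned 2051 to 26798 (median 10028). The ranges of Mki67 overlapped between all groups, and it was called in none of the 8 comparisons of groups. The sum of 7 glioma progenitor markers spanned 145148 to 239094 in the ATRXfl_G34R group, 158336 to 239472 in the ATRXfl_WT group, 145147 to 241255 in the p53_G34R group and 28328 to 311966 in the p53_WT group. The low value was p53_WT replicate 3, where 8 mature neuron markers summed to 207113, against at most 4359 in the rest of its group. ATRXfl_G34R replicate 3 also held more of the 6 mature oligodendrocyte markers (78566) than the others of its group (at most 28967). The medians and counts of members below are also given without these 2 libraries, a choice made after the data were seen. Some libraries share a code in their titles (ATRXfl_G34R replicates 1 and 4, p53_G34R replicates 2 and 3, p53_WT replicates 3 and 4); the labels do not say what it means, so they may not be independent.

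Levels of single libraries are reads divided by a size factor set over all 15 libraries. Per kilobase of exon, the members averaged 13.4 to 394 such reads with a median of 75.1, against 1017 for Mki67. Fance, a subunit of the Fanconi core that binds FANCD2, was the highest per kilobase, and Nbn, the MRN subunit that brings ATM to breaks, followed at 319.8. Rad51b, whose product acts with those of Rad51c, Rad51d and Xrcc2, was the lowest per kilobase and had 10 reads in ATRXfl_WT replicate 2. The ratio of the highest to the lowest library ran from 1.96 for Rad50, the coiled-coil ATPase of MRN, to 15.1 for Rad54l, a motor protein of strand exchange. Its median over the members was 4.33, close to the median of 4.63 over all genes tested. The latter takes in every gene with a mean of at least 10, so these medians are not matched for level.

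**Figure D1:**
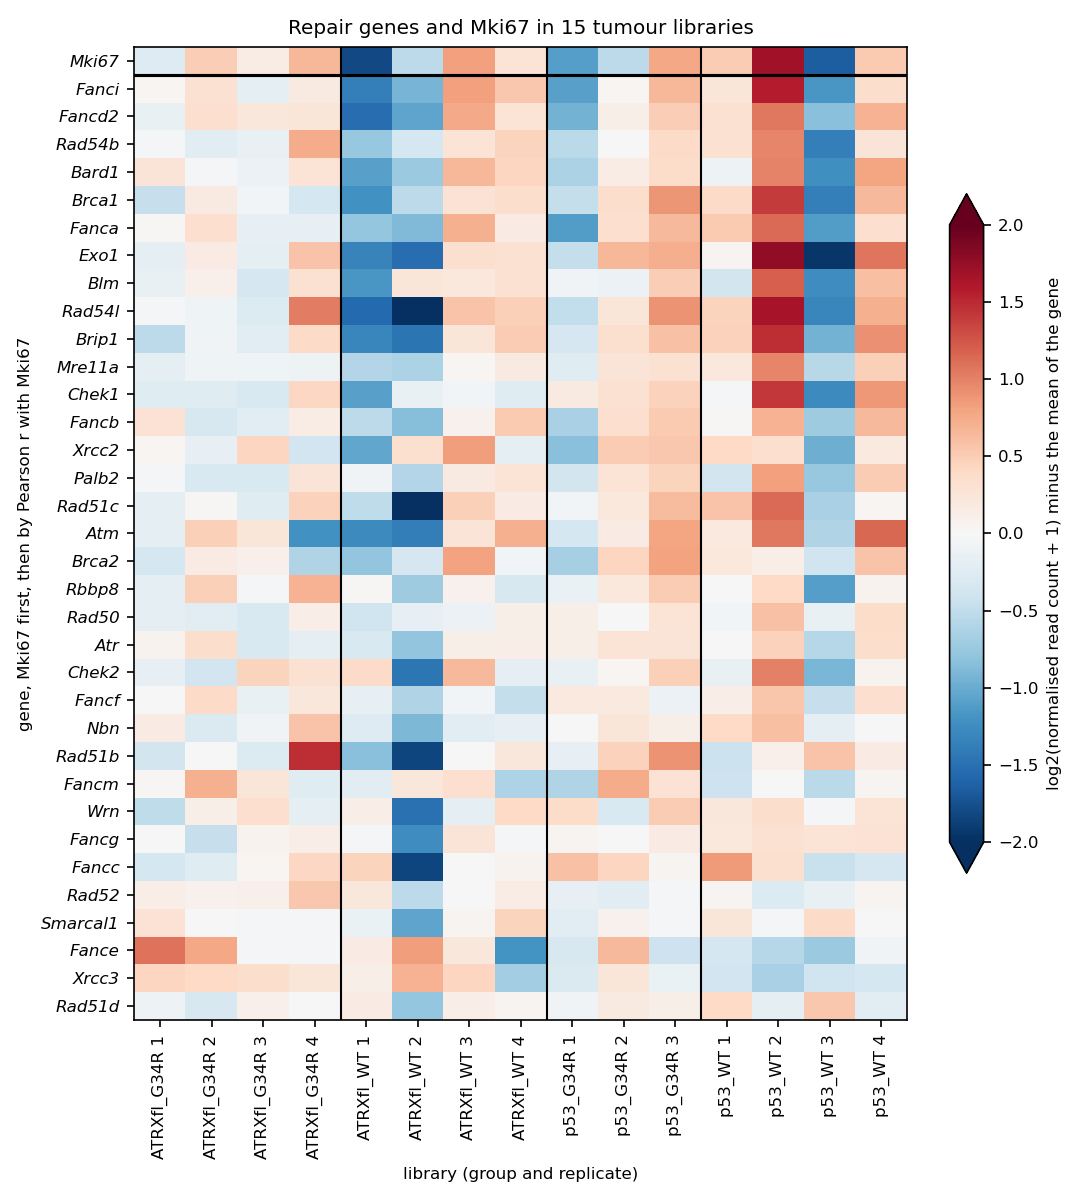
Heat map of the 34 repair genes and Mki67 (rows) in 15 libraries (columns, by group and replicate). Colour is log2(normalised reads + 1) minus the mean of the gene, clipped at 2 on either side; rows run by Pearson r with Mki67. p53_WT replicate 2 holds the highest value of 21 repair genes and ATRXfl_WT replicate 2 the lowest value of 17.

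Promoters are shown for the members on which the results below turn and whose windows differ in their motifs. RefSeq promoter windows (GRCm38.p6, the first listed for each gene, 250 bases before to 50 after the start of the gene) were matched for 25 of the 34 members. Windows are printed 5′ to 3′ on the strand of the gene. Capitals mark 3 kinds of motif searched on both strands: the E2F spellings TTTGGCGC, TTTCGCGC, TTTCCCGC and TTTGCCGC, the cell cycle homology region TTTGAA, and the CCAAT box.
Bard1 (chr1:71102923-71103222, - strand): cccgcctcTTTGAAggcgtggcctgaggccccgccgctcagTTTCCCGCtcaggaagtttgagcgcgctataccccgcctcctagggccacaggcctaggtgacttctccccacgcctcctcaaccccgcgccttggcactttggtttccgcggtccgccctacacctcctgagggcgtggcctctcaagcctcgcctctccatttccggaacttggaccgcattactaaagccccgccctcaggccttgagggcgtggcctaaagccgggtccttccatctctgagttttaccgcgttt
Brca2 (chr5:150522371-150522670, + strand): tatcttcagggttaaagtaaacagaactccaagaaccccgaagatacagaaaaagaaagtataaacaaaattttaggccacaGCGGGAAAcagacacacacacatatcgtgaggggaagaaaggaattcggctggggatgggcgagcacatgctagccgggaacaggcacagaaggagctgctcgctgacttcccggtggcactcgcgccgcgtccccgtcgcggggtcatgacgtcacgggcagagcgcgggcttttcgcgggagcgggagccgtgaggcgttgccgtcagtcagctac
Brca1 (chr11:101551906-101552205, - strand): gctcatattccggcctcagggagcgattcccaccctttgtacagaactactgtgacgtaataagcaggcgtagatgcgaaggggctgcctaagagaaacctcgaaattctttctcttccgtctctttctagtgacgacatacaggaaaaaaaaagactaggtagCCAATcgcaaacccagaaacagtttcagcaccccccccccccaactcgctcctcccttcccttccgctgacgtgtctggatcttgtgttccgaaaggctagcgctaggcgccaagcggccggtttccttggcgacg
Xrcc3 (chr12:111813830-111814129, - strand): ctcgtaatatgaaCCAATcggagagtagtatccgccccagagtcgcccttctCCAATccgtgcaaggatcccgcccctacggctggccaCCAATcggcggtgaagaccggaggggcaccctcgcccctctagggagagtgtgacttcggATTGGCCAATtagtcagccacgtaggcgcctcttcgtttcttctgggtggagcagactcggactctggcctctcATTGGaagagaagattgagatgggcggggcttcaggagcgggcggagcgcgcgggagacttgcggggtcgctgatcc
An E2F spelling was in 5 of the 25 windows (Bard1, Brca2, Chek2, Fancg and Rad51c), against 2.32% of the windows of 27025 genes. Of the 12 members whose RNA followed Mki67 below, 9 had a window and 1 of these, Bard1, held the E2F spelling; of the members that did not pass, 4 of 16 windows held it. TTTGAA was in 2 windows, Bard1 and Smarcal1 (18.1% of all windows), and CCAAT was in 17 (37.9% of all windows), with 6 copies in Xrcc3 alone. In the windows printed, no motif shared a base with a motif of another kind, and a pair of the Xrcc3 boxes, on opposite strands, stand side by side. A match of letters is a description of the window only. Entries for Rad51d, Xrcc2, Rad54b, Rad50, Nbn, Rbbp8, Exo1, Wrn and Fancd2 were not used here.

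The list divided into members that moved with Mki67 from tumour to tumour and members for which no such relation passed the test. In a limma fit of log2 level on log2 Mki67 over all 15 libraries, 12 of 34 members had a positive slope past an adjusted p of 0.05, where 2.86% of all genes tested did so, and 0 had a negative one. Slopes were positive for 31 of 34 members with a median of 0.33, against a median of -0.03 over all genes tested. In Pearson terms the median r of the members was 0.64, against -0.06 over all genes, and 14 members had an r of at least 0.7, as did 3.48% of all genes. A slope of 1 would mean that a member changes in proportion to Mki67.

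**Figure D2:**
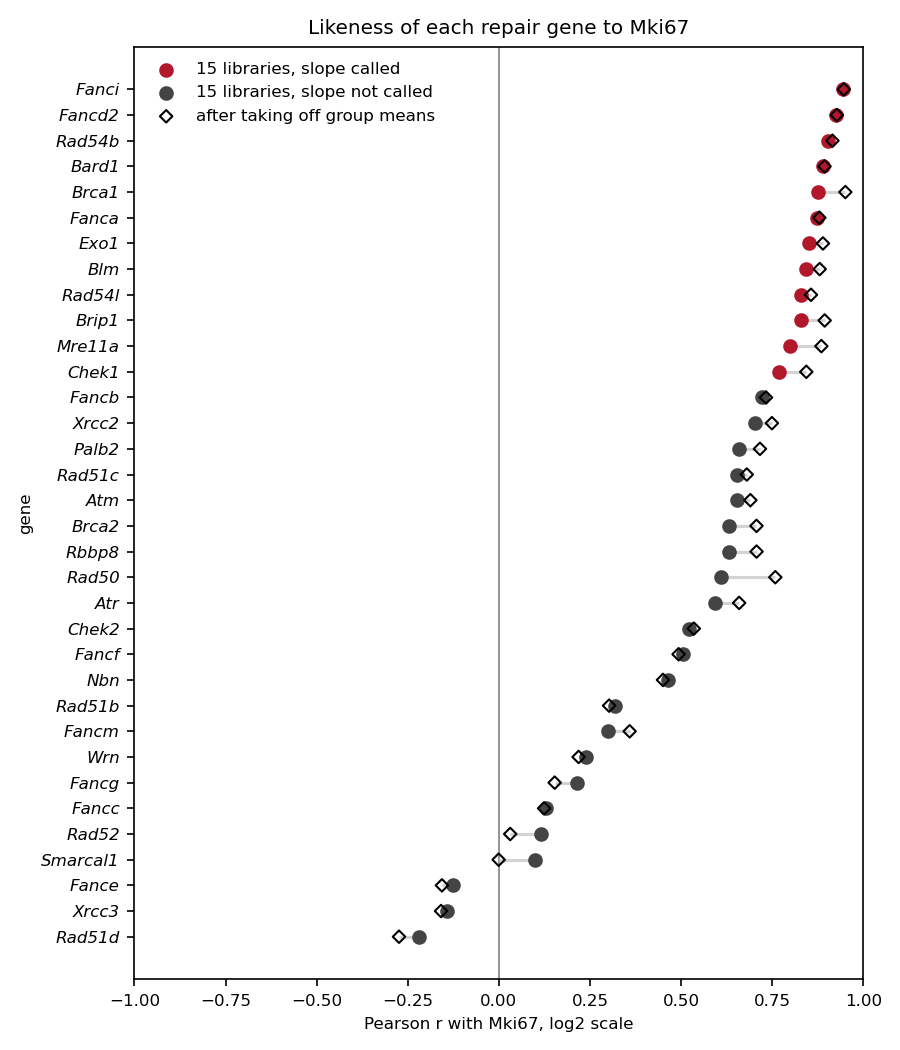
Pearson r of each of the 34 repair genes with Mki67 on the log2 scale (filled circles, 15 libraries; red where the limma slope passed) and the same after taking the mean of each group off both genes (open diamonds). Fanci and Fancd2 sit at the top at 0.94 and 0.92, and Fance, Xrcc3 and Rad51d lie below 0.

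Both genes of the Fanconi ID pair followed Mki67 most closely. Fanci (ENSMUSG00000039187; chromosome 7, 79391929 to 79450264), whose product clamps DNA together with FANCD2, had 396, 479.7, 337 and 440.1 in ATRXfl_G34R, 149, 202, 681 and 560.3 in ATRXfl_WT, 182, 398 and 614 in p53_G34R and 458, 1154, 172 and 496 in p53_WT. The highest library was p53_WT replicate 2 and the lowest ATRXfl_WT replicate 1, and the 4 groups overlapped. Its r was 0.94 and its rho 0.93 over 15 libraries (permutation p = 1e-05 for each, the smallest that 100000 resamples can give), with a slope of 0.80 (SE 0.09, limma adjusted p = 4.70e-05). Fancd2 (ENSMUSG00000034023; chromosome 6, 113531682 to 113597017), the partner that the core complex ubiquitinates, had 507, 710.4, 662 and 663 in ATRXfl_G34R, 196, 271, 952 and 679 in ATRXfl_WT, 291, 609 and 789.7 in p53_G34R and 696, 1175, 315 and 909 in p53_WT. It too was lowest in ATRXfl_WT replicate 1 and highest in p53_WT replicate 2, with r = 0.92 and rho = 0.94 (permutation p = 1e-05 for each) and a slope of 0.71 (SE 0.09, limma adjusted p = 0.000120). Exons of Fanci share 16.0% of their bases with Polg on the opposite strand, and the strand setting of the counts is not given.

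Of the BRCA1 and BRCA2 axis, 3 of 5 members passed. Brca1 (ENSMUSG00000017146; chromosome 11, 101488764 to 101551955), which starts recombination and directs resection, had 566, 886, 748 and 609 in ATRXfl_G34R, 335, 543, 957 and 991 in ATRXfl_WT, 563, 997 and 1435 in p53_G34R and 1013, 2051, 301 and 1219 in p53_WT. The 2 lowest libraries, p53_WT replicate 3 and ATRXfl_WT replicate 1, were also the 2 lowest in Mki67, and the groups overlapped. The r was 0.88 (permutation p = 3e-05) and rho 0.79 (permutation p = 0.000700), with a slope of 0.67 (SE 0.10, limma adjusted p = 0.000948). Bard1 (ENSMUSG00000026196; chromosome 1, 71027498 to 71103146), the obligate partner of BRCA1 whose window above holds an E2F spelling and TTTGAA, had 372, 304, 285 and 375 in ATRXfl_G34R, 146, 186, 493 and 418 in ATRXfl_WT, 201, 343 and 398 in p53_G34R and 289.6, 614, 132 and 533 in p53_WT. Again the same 2 libraries were the lowest and p53_WT replicate 2 the highest, with r = 0.89 (permutation p = 1e-05), rho = 0.86 (permutation p = 9.00e-05) and a slope of 0.61 (SE 0.10, limma adjusted p = 0.00191). Brip1, a helicase bound to BRCA1, also passed (slope 0.69, limma adjusted p = 0.00775) and spanned 82.9 to 638 (median 270.1). Palb2, which bridges BRCA1 and BRCA2, and Brca2, the tumour suppressor that acts after resection, did not pass, at r = 0.66 and 0.63 (limma adjusted p = 0.137 and 0.0992). Brca2 peaked elsewhere, at 1011 in ATRXfl_WT replicate 3, and had 631 in p53_WT replicate 2.

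The 8 genes that assist strand exchange (Rad51b, Rad51c, Rad51d, Xrcc2, Xrcc3, Rad52, Rad54l and Rad54b) were divided, with r between -0.22 and 0.90 and 2 of 8 members past the threshold. Rad54b (ENSMUSG00000078773; chromosome 4, 11558922 to 11615805), a motor protein related to RAD54, had 239.99, 210.4, 220.2 and 408 in ATRXfl_G34R, 144, 192, 294 and 334 in ATRXfl_WT, 168, 246 and 318 in p53_G34R and 300.4, 482, 94.0 and 293 in p53_WT. The low library was p53_WT replicate 3 and the high ones were p53_WT replicate 2 and ATRXfl_G34R replicate 4, with r = 0.90 (permutation p = 1e-05), rho = 0.86 (permutation p = 0.000130) and a slope of 0.55 (SE 0.10, limma adjusted p = 0.00275). Since 35.9% of its exon bases are shared with other genes, among them Fsbp on the same strand, its counts are uncertain; 15 members share some exon bases with another gene, such as Rad54l with 15.4%. Rad54l had the steepest slope of the members, 0.89 (SE 0.16, limma adjusted p = 0.00369), over a span of 94.6 to 1424 (median 536). Rad51c, Xrcc2 and Rad51b did not pass: Rad51c had r = 0.65, Xrcc2 0.70 and Rad51b 0.32 (limma adjusted p = 0.0821, 0.0508 and 0.507).

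Xrcc3, Rad51d and Rad52 of the same group lay at the bottom of the order. Xrcc3 (ENSMUSG00000021287; chromosome 12, 111803192 to 111813873), which works in a complex with RAD51C, had 598, 581, 567 and 524 in ATRXfl_G34R, 483, 714, 595 and 272 in ATRXfl_WT, 362, 522 and 405 in p53_G34R and 341, 282, 335 and 349 in p53_WT. Its highest and lowest libraries were both in ATRXfl_WT, and no relation with Mki67 passed a test (r = -0.14, permutation p = 0.614; rho = -0.10, permutation p = 0.724; limma adjusted p of the slope = 0.801). Rad51d (ENSMUSG00000018841; chromosome 11, 82876434 to 82890614), of the complex with RAD51B, RAD51C and XRCC2, had 573, 493, 662 and 609 in ATRXfl_G34R, 688, 359.8, 676 and 643 in ATRXfl_WT, 589, 694 and 665 in p53_G34R and 810.2, 545, 892 and 524 in p53_WT. Here p53_WT replicate 3, one of the lowest in Mki67, was the highest library (r = -0.22, permutation p = 0.431; rho = -0.20, permutation p = 0.479). Rad52, the mediator of recombination in yeast and a strand-annealing protein in mammals, varied little over its 15 libraries and had 648, 627, 635 and 862 in ATRXfl_G34R, 695, 410.1, 589.8 and 656 in ATRXfl_WT, 530.01, 510.4 and 580.3 in p53_G34R and 617, 492, 536 and 614 in p53_WT. Its r was 0.12 (permutation p = 0.684) and its rho 0.01 (permutation p = 0.985).

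**Figure D3:**
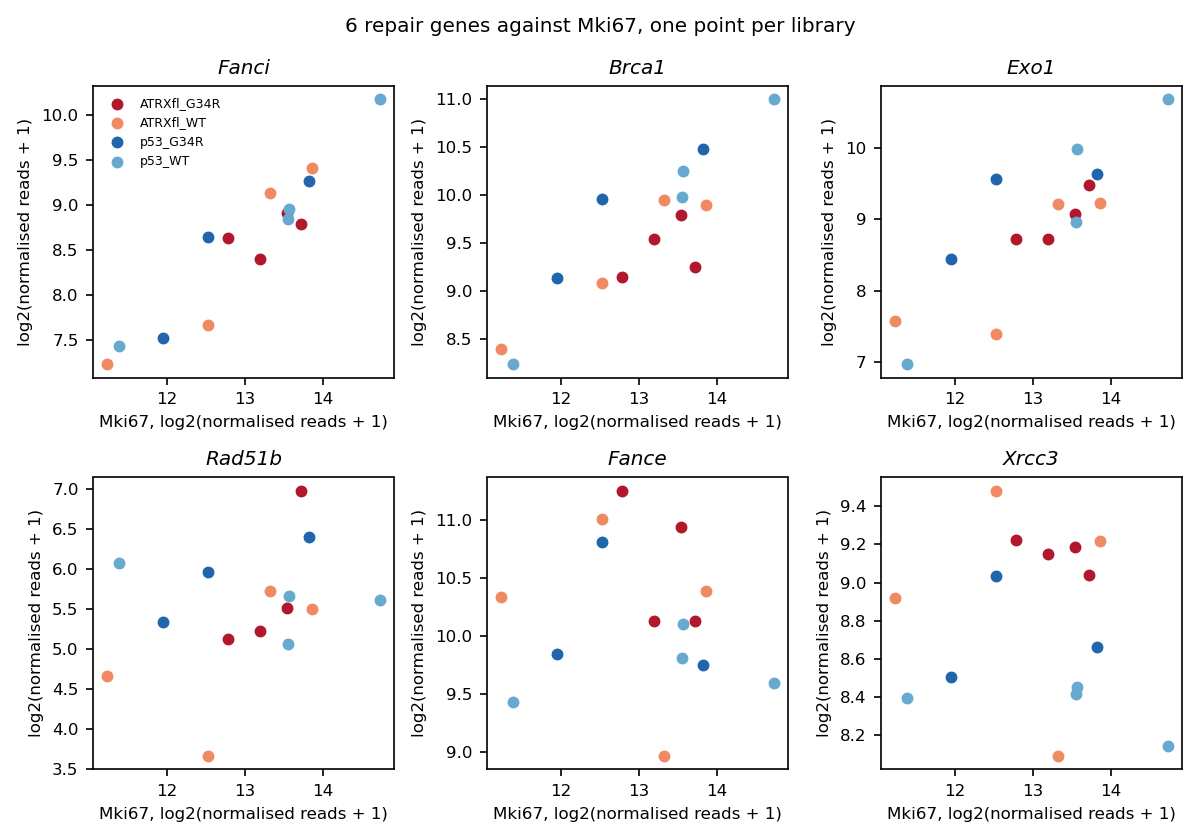
Level of 6 repair genes against Mki67, both as log2(normalised reads + 1), with 1 point per library coloured by group. Fanci, Brca1 and Exo1 climb with Mki67 over the 15 libraries, while Rad51b, Fance and Xrcc3 scatter, with r of 0.32, -0.12 and -0.14.

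Among genes of end resection and of helicases, 3 of 7 passed. Exo1, the exonuclease of long-range resection, spanned 124 to 1646 (median 539.6), from p53_WT replicate 3 up to p53_WT replicate 2, with a slope of 0.87 (SE 0.14, limma adjusted p = 0.00191). Blm, the helicase that dissolves crossed strands, had a slope of 0.54 (limma adjusted p = 0.00559) over 217 to 1173 (median 548). Mre11a, the nuclease of MRN, passed with a shallower slope of 0.35 (limma adjusted p = 0.0211) over 569 to 1749.8 (median 836). The other MRN genes did not follow it past the threshold: Rad50 had r = 0.61 and Nbn r = 0.46 (limma adjusted p = 0.183 and 0.291). Rbbp8, which encodes the CtIP cofactor that starts resection, had r = 0.63, and Wrn, the Werner helicase, had r = 0.24 (limma adjusted p = 0.105 and 0.624). Of the checkpoint kinases 1 of 4 passed, Chek1, the kinase that ATR switches on, with a slope of 0.53 (limma adjusted p = 0.0241) over 145 to 943 (median 342). Atm, the break-sensing kinase, Atr, the kinase of bared single strands, and Chek2, the kinase below ATM, had r of 0.65, 0.59 and 0.52 (limma adjusted p = 0.0654, 0.158 and 0.195).

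Of the Fanconi core, which modifies the ID pair, 1 of 7 members passed. Fanca, a central subunit of the core, passed with a slope of 0.63 (SE 0.10, limma adjusted p = 0.00181) over 228 to 1095 (median 561). Fancb, of the module that holds the ubiquitin ligase, had r = 0.72, Fancf, an adaptor, 0.51, Fancm, the translocase that anchors the core to DNA, 0.30, Fancg, a partner of FANCA, 0.21 and Fancc, a partner of FANCE, 0.13. Their limma adjusted p-values were 0.0821, 0.356, 0.532, 0.684 and 0.808. Fance (ENSMUSG00000007570; chromosome 17, 28313519 to 28326572) had 2436, 1961, 1118 and 1120.1 in ATRXfl_G34R, 1293, 2055, 1343 and 501 in ATRXfl_WT, 922, 1796 and 863 in p53_G34R and 897, 775, 689 and 1097 in p53_WT. Its highest library was ATRXfl_G34R replicate 1 and its lowest ATRXfl_WT replicate 4, neither of them an extreme of Mki67 (r = -0.12, permutation p = 0.654; rho = -0.20, permutation p = 0.480). Smarcal1 (ENSMUSG00000039354; chromosome 1, 72583251 to 72633134), which remodels stalled forks by rewinding their strands, had 1675, 1368, 1342 and 1349 in ATRXfl_G34R, 1247, 659, 1417 and 1867 in ATRXfl_WT, 1172, 1457 and 1351 in p53_G34R and 1614, 1344, 1792 and 1358 in p53_WT. It was low in 1 library, ATRXfl_WT replicate 2, and lay between 1172 and 1867 in the others (r = 0.10, permutation p = 0.717; rho = 0.10, permutation p = 0.713).

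Following Mki67 was seen inside the groups as well as across them. With a term for each group in the fit, the same 12 members had a positive slope past the threshold, where 2.41% of all genes did, and the median slope was 0.35. After group means were taken off both genes the median r of the members was 0.71, and that of Brca1 was 0.95. The 2 libraries farthest from the median of Mki67 were ATRXfl_WT replicate 1 and p53_WT replicate 3. Without them, r was 0.91 for Fanci, 0.88 for Fancd2, 0.84 for Rad54b, 0.78 for Bard1 and 0.75 for Brca1. At the other end of the order it was 0.27 for Rad52, 0.31 for Smarcal1, -0.38 for Fance, -0.34 for Xrcc3 and 0.18 for Rad51d, whose sign turned. When any 1 library was left out, the fit without group terms called between 9 members (without p53_WT replicate 2) and 15 (without ATRXfl_G34R replicate 4). Chek1 and Mre11a lost their calls without ATRXfl_WT replicate 1, p53_WT replicate 2 or p53_WT replicate 3 (highest limma adjusted p = 0.125 and 0.114). Brip1 lost its call without p53_WT replicate 2. The r of Chek1 was 0.53 without the 2 libraries farthest from the median of Mki67. The fit with group terms called 8 without p53_WT replicate 2 and 3 without p53_WT replicate 3, namely Fanci, Fancd2 and Brca1. Without both libraries rich in cortex transcripts the counts were 10 and 3. With libraries of the same title code summed they were 11 and 5, where the fit with group terms no longer called Bard1, Blm, Brip1, Chek1, Mre11a, Rad54b and Rad54l. Fewer libraries entered all these fits, and the share of all genes called in them is not given here. The lower counts are thus not read as particular to the members. The 2 libraries lowest in Mki67 were also rich in other cells. ATRXfl_WT replicate 1 had the highest sum of 5 endothelial markers, 66536, against at most 16547 in any other library, and p53_WT replicate 3 had the neuronal sum given above; none of these markers was at 0 in all libraries. The part of such cells in the slopes was not tested, and in bulk RNA fewer cycling cells and less RNA per cell cannot be told apart.

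Other genes of the pathway also followed Mki67. Of 61 other homologous recombination and Fanconi genes tested, 21 had a positive slope past the threshold and 0 a negative one, and their median r was 0.52. The smallest p-values belonged to H2afx, the histone marked at breaks (slope 0.58, limma adjusted p = 8.47e-05), Polq, the polymerase of alternative end joining (slope 0.70, limma adjusted p = 0.000146), and Clspn, the adaptor of CHK1 (slope 0.81, limma adjusted p = 0.000157). Ube2t, the conjugating enzyme of the Fanconi core, and Usp1, which removes its ubiquitin, were also among the 21. Of 13 end joining genes, Xrcc6, which encodes Ku70, had a positive slope (0.39, limma adjusted p = 0.0452) and Paxx, a Ku-binding factor, a negative one (-0.39, limma adjusted p = 0.0324), with a median r of 0.33.

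The 2 libraries with the largest median residuals lay on opposite sides of the relation with Mki67. ATRXfl_WT replicate 2 was the lowest library for 17 of 34 members, whereas 12.4% of all genes tested were lowest there, and 28 members lay below their line on Mki67 in it (median residual -0.55 on the log2 scale), as did 50.9% of all genes. Its Mki67 level of 5886 was close to the 5888 of p53_G34R replicate 2, the other of these 2 libraries. There 2 members lay below the line, as did 49.8% of all genes, and the median residual was 0.45. The levels set side by side next are thus from libraries off the line in opposite directions. Rad54l had 94.6 in ATRXfl_WT replicate 2 and 536 in p53_G34R replicate 2, Rad51c 53.7 and 261, and Chek2 148 and 417. Xrcc3 and Fance ran the other way in ATRXfl_WT replicate 2, at 714 and 2055. Xrcc2, Blm, Fancm and Chek1 also lay above their lines in that library, with residuals of 0.55, 0.52, 0.30 and 0.13. By contrast, p53_WT replicate 2 was the highest library for 21 members, where 10.2% of all genes peaked, and it was also the highest in Mki67.

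Between genotypes and histones no member changed past the threshold by limma or by edgeR in any of the 5 pairs, nor in the pooled fits. The question of each pair is what H3.3G34R adds with Atrx floxed or intact, what the floxed Atrx adds with either histone, and what both add over neither. Means in these paragraphs are on the scale of the deposited table of each pair. Pairs share groups, so their values are set side by side and not counted as separate evidence. Counts of members at an unadjusted p with libraries left out come without the share over all genes, so they are not read as a result.

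**Figure D4:**
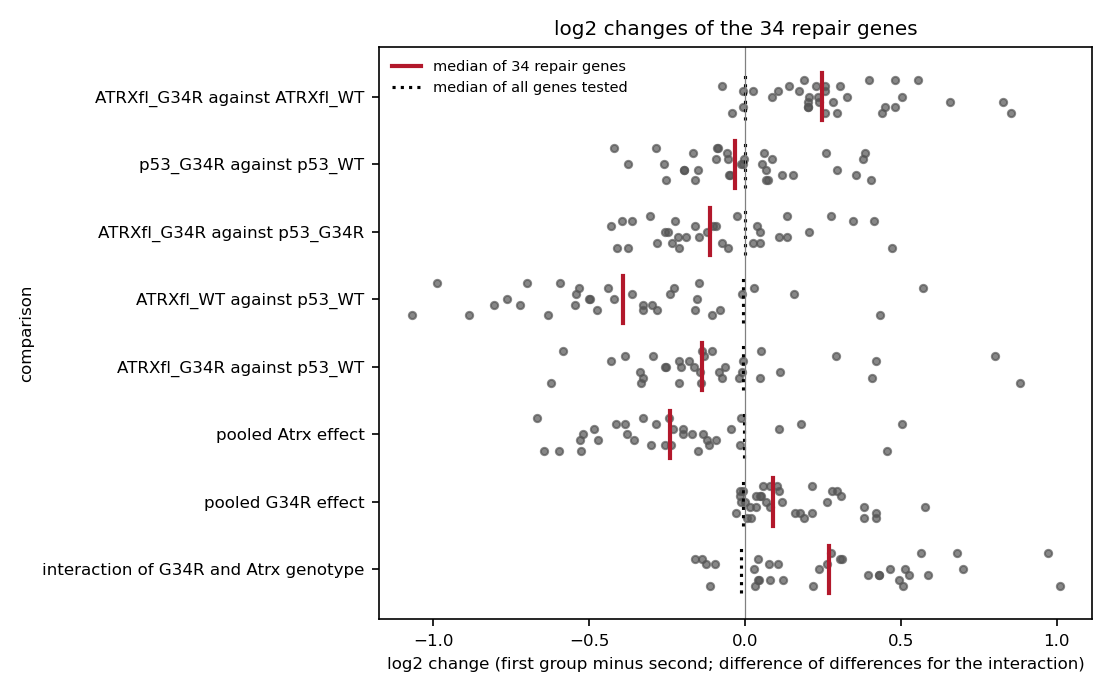
log2 changes of the 34 repair genes (points) in the 5 pairs and 3 pooled fits, first group minus second, with the median of the members (red line) and of all genes tested (dotted line). The members lie to the right of all genes in ATRXfl_G34R against ATRXfl_WT (median 0.25) and to the left in ATRXfl_WT against p53_WT (median -0.39).

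With Atrx floxed, H3.3G34R tumours had log2 changes above 0 for 30 of 34 members against H3.3WT (median 0.25, and -0.000775 over all genes tested). The median was smaller by edgeR, 0.14, and by DESeq2, 0.13 with 27 members above 0. Over all genes it was -0.01 by edgeR and -0.04 by DESeq2. Limma called 0 of 34 members and 0% of all genes tested, and edgeR and DESeq2 called 0 members too. An unadjusted limma p under 0.05 was reached by 0 members and by 488 of all 17521 genes tested. Groups overlapped for all 34 members (2.16% of all genes did not overlap). The smallest p-values were those of Nbn (845 ± 224 in ATRXfl_G34R (SD, n = 4) and 602 ± 127 in ATRXfl_WT (SD, n = 4); log2 0.48 (SE 0.26), limma adjusted p = 0.9997), Rbbp8 (0.48) and Fancf (0.45, both log2). The median stayed above 0 whichever library was left out, and was 0.27 without the cortex-rich ATRXfl_G34R replicate 3, 0.09 without ATRXfl_WT replicate 2 and 0.40 without ATRXfl_WT replicate 3. Mki67 itself stood at log2 0.58 (SE 0.50) in this pair, and with Mki67 as a covariate the median was 0.08 and 21 members were above 0.

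With Atrx intact, H3.3G34R against H3.3WT gave 14 of 34 members above 0 and a median of -0.03 (-0.000280 over all genes). Limma called 0 members and 0% of all genes, and edgeR and DESeq2 called 0 members. In limma 0 members had an unadjusted p under 0.05, as did 262 of all 17873 genes tested. Groups did not overlap for 2 members, against 2.61% of all genes. Xrcc3 was higher in each p53_G34R library (439.9 ± 88.7 in p53_G34R (SD, n = 3) and 334 ± 31.1 in p53_WT (SD, n = 4); log2 0.38 (SE 0.30), limma adjusted p = 0.99999). Fancg was lower in each, by a small step (541 ± 27.5 in p53_G34R (SD, n = 3) and 619.9 ± 16.8 in p53_WT (SD, n = 4); log2 -0.20 (SE 0.24), limma adjusted p = 0.99999). Fance and Fancm had the next smallest p-values (log2 0.41 and 0.38). The sign of the median turned without p53_G34R replicate 1 (0.15), p53_WT replicate 2 (0.17) or p53_WT replicate 4 (0.04), and with Mki67 as a covariate (0.24). Without the cortex-rich p53_WT replicate 3 it was -0.23, with 7 members above 0. It was -0.19 with libraries of the same title code summed. By edgeR it was -0.09 (-0.02 over all genes), and by DESeq2 -0.11 (-0.09 over all genes).

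With H3.3G34R present, ATRXfl_G34R against p53_G34R had 12 of 34 members above 0 (median -0.11). Limma called 0 members, where 0.0229% of all genes were called, and edgeR and DESeq2 called 0 members. By limma 0 members had an unadjusted p under 0.05, as did 591 of all 17459 genes tested. Rad52 was the 1 member whose groups did not overlap, against 4.64% of all genes. It was higher with Atrx floxed (693 ± 112 in ATRXfl_G34R (SD, n = 4) and 541 ± 36.7 in p53_G34R (SD, n = 3); log2 0.34 (SE 0.21), limma adjusted p = 0.9999). Xrcc3 (log2 0.41) and Chek1 (-0.41) had the other small p-values, in opposite directions. The median ran from -0.29 without p53_G34R replicate 1, with 5 members above 0 and 2 at an unadjusted p under 0.05, to 0.03 without p53_G34R replicate 3. It was -0.07 without the cortex-rich ATRXfl_G34R replicate 3, -0.03 with libraries of the same title code summed, and -0.30 with Mki67 as a covariate, with 5 members above 0.

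With H3.3WT, ATRXfl_WT against p53_WT gave 4 of 34 members above 0 (median -0.39, and -0.01 over all genes). Limma called 0 members, where 0.0335% of all genes were called, and edgeR and DESeq2 called 0 members. An unadjusted limma p under 0.05 was reached by 0 members and by 673 of all 17893 genes tested. Groups overlapped for all 34 members (2.65% of all genes did not). Nbn had the smallest p (613 ± 129 in ATRXfl_WT (SD, n = 4) and 930.02 ± 234 in p53_WT (SD, n = 4); log2 -0.59 (SE 0.28), limma adjusted p = 0.975), followed by Xrcc3 (log2 0.57), which pointed the other way, and Fancg (-0.55). The median ran from -0.60 without the cortex-rich p53_WT replicate 3, where 6 members had an unadjusted p under 0.05, to -0.17 without ATRXfl_WT replicate 2, the library in which so many members were lowest, and was -0.17 with Mki67 as a covariate, where Mki67 itself stood at log2 -0.58 (SE 0.75).

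Both changes against neither, ATRXfl_G34R against p53_WT, was the pair with the most members whose groups did not overlap. Limma called 0 of 34 members and 0.0227% of all genes, and edgeR called 0 members. At an unadjusted p under 0.05 limma had 2 members, and 772 of all 17659 genes tested. Changes were above 0 for 8 members (median -0.14). Groups did not overlap for 4 members, against 2.94% of all genes. Xrcc3 was the clearest: its 4 ATRXfl_G34R libraries held 598, 581, 567 and 524, against 341, 282, 335 and 349 in p53_WT. That is a log2 change of 0.80 (SE 0.22; limma unadjusted p = 0.00486, adjusted p = 0.996). The edgeR test gave an adjusted p of 0.911 and DESeq2 on the recovered reads 0.026, and in the authors' deposited table Xrcc3 had a log2 fold change of 0.80 with an adjusted p of 0.0231. It was the 1 member past 0.05 in any of the 5 deposited tables, and with 1 library left out its limma log2 change stayed between 0.73 and 0.84, and was 0.81 without both cortex-rich libraries. Over all alternatives its adjusted p ran from 0.026 to 1. Fance was higher in each ATRXfl_G34R library as well (1610.3 ± 639.6 in ATRXfl_G34R (SD, n = 4) and 836 ± 176 in p53_WT (SD, n = 4); log2 0.88 (SE 0.31), limma adjusted p = 0.999), and so was Rad52 (672 ± 108 in ATRXfl_G34R (SD, n = 4) and 546 ± 62.3 in p53_WT (SD, n = 4); log2 0.29 (SE 0.22), limma adjusted p = 0.999). Fancg had 497, 366, 525 and 549 in ATRXfl_G34R, 493, 210.3, 599 and 487 in ATRXfl_WT, 521, 505 and 562 in p53_G34R and 581, 622, 609 and 614 in p53_WT. Here p53_WT was tight and each ATRXfl_G34R library was below it (469 ± 77.9 in ATRXfl_G34R (SD, n = 4) and 586 ± 15.4 in p53_WT (SD, n = 4); log2 -0.34 (SE 0.22), limma adjusted p = 0.999). These 4 members have r with Mki67 of -0.14, -0.12, 0.12 and 0.21, all in the lower part of the order. Mki67 itself stood at log2 0.00204 (SE 0.62) by limma in this pair. The authors' deposited log2 fold change for it was -0.37 (SE 0.61), and its p53_WT libraries spanned 2685, in the cortex-rich p53_WT replicate 3, to 27187. The median of all members was 0.10 without p53_WT replicate 2 and -0.42 without p53_WT replicate 3, where 7 members had an unadjusted p under 0.05. It was -0.39 without both cortex-rich libraries, with 6 such members, -0.27 with libraries of the same title code summed, -0.24 by edgeR and -0.25 by DESeq2. Over all genes the median was -0.06 by edgeR and -0.12 by DESeq2.

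**Figure D5:**
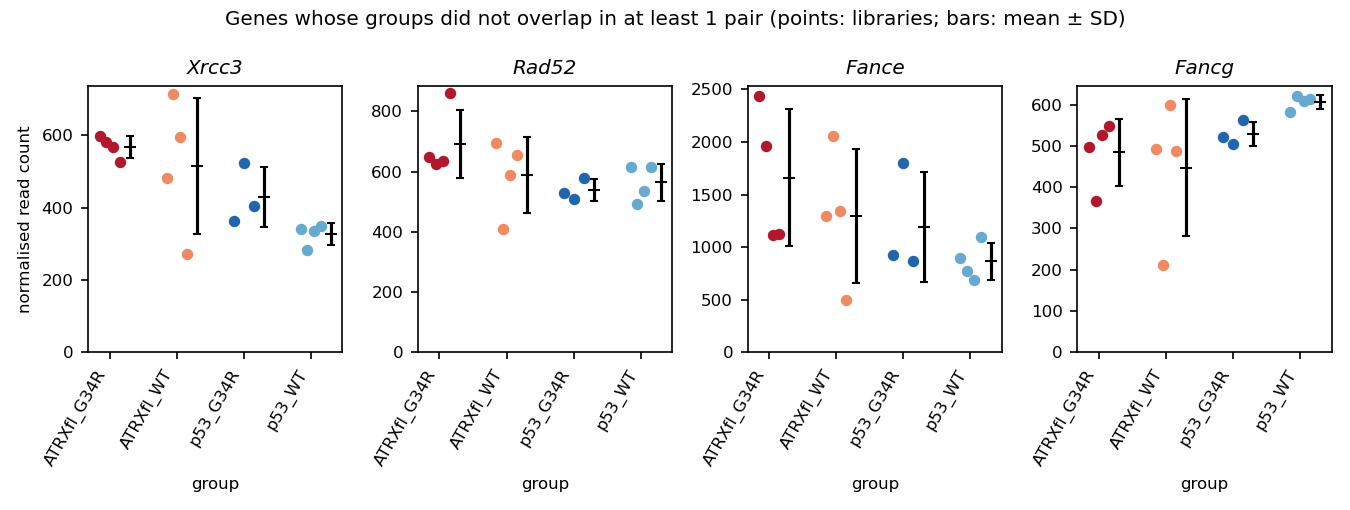
Normalised reads of Xrcc3, Rad52, Fance and Fancg in each library (points) by group, with mean ± SD to the right of the points. Xrcc3 sits between 524 and 598 in ATRXfl_G34R and between 282 and 349 in p53_WT, with ATRXfl_WT spread from 272 to 714.

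Pooled over both histones, floxed against intact Atrx (8 against 7 libraries) had 4 of 34 members above 0 with a median of -0.24. Limma, edgeR and DESeq2 called 0 members, where limma called 0.107% of all genes. At an unadjusted p under 0.05 limma had 1 member and 974 of all 17776 genes tested. By edgeR these were 2 members and 1111 of 17776 genes, and by DESeq2 3 members and 1843 genes. Xrcc3 stood at log2 0.50 (SE 0.20, limma adjusted p = 0.820), against -0.30 (SE 0.15) for Rad50 and -0.39 (SE 0.21) for Mre11a. H3.3G34R against H3.3WT over both Atrx genotypes had 28 members above 0 (median 0.09). By edgeR 16 were above 0 (median -0.01, and -0.05 over all genes). Limma, edgeR and DESeq2 called 0 members, and limma called 0% of all genes. An unadjusted limma p under 0.05 was reached by 0 members and by 421 of all 17776 genes tested. Rbbp8, Xrcc3 and Rad51b had the smallest p-values there (log2 0.42, 0.30 and 0.58). The difference of the G34R effect between Atrx genotypes was above 0 for 29 members (median 0.27). Limma, edgeR and DESeq2 called 0 members for it, and limma called 0% of all genes. By limma 0 members had an unadjusted p under 0.05, as did 365 of all 17776 genes tested. The smallest p-values of this difference were those of Nbn, Fancd2 and Smarcal1 (log2 0.56, 0.97 and 0.43). With Mki67 as a covariate its median was -0.13, and 11 members were above 0. Without both cortex-rich libraries the medians of these 3 fits were -0.35 (7 members at an unadjusted p under 0.05), -0.01 and 0.55, and 0 members were called. Over these 8 comparisons 0 of the other 61 pathway genes and 0 of the 13 end joining genes were called by limma, edgeR or DESeq2.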

How the data were processed

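Per the labels' protocols, tumour RNA came from Qiagen RNeasy columns and was sequenced as TruSeq mRNA libraries. Per the submitters' processing notes, STAR 2.7, HTSeq and DESeq2 were used on mm10; the sources used here give neither the annotation, the strand setting nor other versions. The authors deposited 5 tables of 54232 genes, 1 for each pair of groups. Their library columns hold a signal, the read count of each gene divided by a size factor set within that table, and per the file headers they also hold the mean of that signal, the Wald score of each gene, its p-value before and after adjustment, and its log2 fold change with a standard error.

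Divided by what 1 read is worth in its library, 100% of values were whole within 0.01, which gave back the reads; 3 columns whose value of 1 read was close to 1 were not used for recovery, and their libraries were read from another table. IDs were matched to symbols of a GENCODE table (54079, 99.7%); 2 of 63 other pathway genes had no match. Pairs were fitted with limma 3.58.1 (trend, robust; R 4.3.3) on log2(signal + 1), leaving out genes whose mean was under 10; calls are at a p under 0.05 after Benjamini-Hochberg adjustment over all genes tested. The pseudocount understates changes of low genes. Pooled fits, slopes and correlations used reads scaled over all 15 libraries by the median of ratios, so library values differ slightly from pair means. Each of 34 correlations with Mki67 has a 2-sided permutation p of 100000 resamples (Python 3.11.15, scipy 1.17.1), and the p adjusted over all genes is that of the limma slope. edgeR 4.0.16 and DESeq2 1.42.0 were run on the recovered reads; edgeR called 0, 0, 0, 2 and 2 genes in the pairs in the order of the text. The fits of a pair and of the slopes, but not the pooled fits, were run on simulated reads. These had set changes and 1 set spread for all genes, so they do not give the power of the comparisons above. Named are members past the threshold or with the 3 smallest p in each comparison, the 5 highest and 5 lowest r, and members whose groups did not overlap. The members and lists were chosen with earlier results of these data known. Nothing says that libraries came from separate mice, so p-values measure the spread between libraries, and replicate numbers follow accession order. Over 21 pairs of libraries within groups, chi-square was at least 81.2 per degree of freedom, so none was counted as a repeat.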

Additional observations from a re-analysis of the deposited data

Results flagged for a closer look

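In groups of 4 libraries, 1 library stood apart from the other 3 in 9 of 102 combinations of member and group, by a gap past Dixon's 95% critical value. Chance marks about 1 in 20, members share libraries, and p53_G34R with 3 libraries could not be looked at. ATRXfl_G34R replicate 4 gave 5 of the 9, all high. Rad51b had 125 normalised reads there (others 34.01 to 44.7), Rad52 had 862 (627 to 648), Rad54l had 922 (375 to 447), Rad54b had 408 (210.4 to 239.99) and Chek1 had 469 (286 to 299). ATRXfl_WT replicate 2 gave 2, both low, with Rad51d at 359.8 (643 to 688) and Nbn at 423 (656 to 703). Blm was low in ATRXfl_WT replicate 1 at 229 (595 to 635), the library with the lowest Mki67, and Smarcal1 was high in ATRXfl_G34R replicate 1 at 1675 (1342 to 1368). What sets these libraries apart was not tested.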

How the results depend on the processing

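Of 210 alternative counts of members called, 206 lay within 1.5 times the reported count or were 0 where it was 0. Most of the 210 were of the 8 comparisons of groups, where the reported count was 0. DESeq2 called 1 member in ATRXfl_G34R against p53_WT, Xrcc3, where limma called 0; over the other limma and edgeR settings its adjusted p there ran from 0.403 to 1. The slope on Mki67 within groups called 5 members when libraries with the same title code were summed, and 3 without both libraries rich in cortex transcripts, an alternative chosen after the data were seen; fewer libraries entered both fits. With 1 library left out, the slope called 9 to 15 members, the slope within groups 3 to 14, and each of the 8 comparisons of groups 0 to 0. The shares of all genes called in these fits with fewer libraries are not given here. For all genes, limma and DESeq2 called 0 and 33, 0 and 14, 4 and 111, 6 and 78, and 4 and 75 genes in the 5 pairs in the order of the text. DESeq2 moved the median of all genes to -0.12 in ATRXfl_G34R against p53_WT, where that of the members was -0.25. The slope called 821 genes by limma, 2004 by edgeR and 2717 by DESeq2, of which 508, 712 and 937 were positive; within groups the 3 tools called 691, 817 and 2445, of which 429, 416 and 928 were positive. For members the slope was positive in all calls, 15 by edgeR and 18 by DESeq2. Top2a or a proliferation list in place of Mki67 called 15 members each. Of 1011 alternatives for 45 named values, 998 were counted as the same, 7 lost the call and 1 gained one. The other 5 were of uncalled values and moved by over their standard error. Among the 998, called values kept their direction and call, and uncalled ones stayed uncalled and moved by less than their standard error. Direction was not checked for uncalled values, and 0 called ones reversed. Medians near 0 turned sign: the G34R effect over both genotypes was -0.01 by edgeR, by DESeq2, without ATRXfl_WT replicate 2 and without the cortex-rich libraries. The median of all genes for that effect also lay lower by edgeR (-0.05) and by DESeq2 (-0.08) than by limma (-0.005), so the members stayed above it. The cause of these shifts was not tested. No paired analysis was possible because replicate numbers follow accession order and pair no libraries.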

Other observations

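Trp53, floxed in every group and so with no control here, had 823, 929, 719 and 1003 in ATRXfl_G34R, 2128, 1730.2, 587 and 658 in ATRXfl_WT, 1254, 836 and 614 in p53_G34R and 511, 568, 1278 and 717 in p53_WT. Its slope on Mki67 was negative (-0.50, SE 0.10, limma adjusted p = 0.00968), whereas 0 of 34 repair members had a negative slope past the threshold.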
